A study of Mus musculus with 44 samples.

Results

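The set described here holds 10 genes for lipid binding proteins and lipid carriers: Fabp7, Fabp5, Fabp3, Apoe, Apod, Clu, Plin2, Plin3, Lpl and Cd36. They were chosen by gene symbol, whatever their values, and are 10 of 45882 genes in the largest expression tables. All 10 had values in satellite glial cells (SGCs, which enclose the cell bodies of sensory neurons) and in whole dorsal root ganglia (DRGs). In isolated neurons values covered only 12170 genes, and 8 of the 10 members were among them. Shares of all genes in neurons come from that smaller set.

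All bulk RNA libraries came from C57BL/6 mice. Naive mice aged 9 weeks gave 4 libraries of sorted SGCs and 4 of dissociated whole DRGs. Mice aged 9 to 11 weeks gave sorted SGCs after full ligation of the sciatic nerve or after sham surgery, in 4 groups of 4 libraries taken 3 or 14 days later. Neurons were isolated with magnetic beads 8 days after a partial ligation or sham surgery, also at 9 to 11 weeks, with 3 libraries each from ligated males, sham males, ligated females and sham females. A further 4 neuron libraries came from the ligated side and 4 from the opposite side of ligated mice. Injury, time and preparation thus all differ between the neuron and the SGC experiments. The labels do not say which libraries share an animal or pool several, so the p-values reflect library-to-library spread only. Levels are FPKM, fragments scaled to transcript length and library size, and the tables of naive tissue, SGCs after surgery and neurons were scaled separately. In bulk samples, fewer cells of a type and less RNA per cell cannot be told apart.

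Fatty acid binding proteins (FABPs) are small cytosolic proteins that carry long-chain fatty acids between membranes, enzymes and nuclear receptors. Apolipoproteins carry lipids outside the cell: Apoe and Clu coat lipid particles that receptors of the LDL receptor family take up, and Apod is a lipocalin that binds single small lipids. Perilipins coat lipid droplets, Lpl is the lipase that frees fatty acids from lipoprotein triglycerides, and Cd36 is a membrane receptor for fatty acids and oxidised lipoproteins. In the nervous system Fabp7 and Apoe are best known as products of glia.

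The labels were checked against markers of each cell type. The summed level of 8 satellite glial markers was 1127 to 1206 FPKM in naive SGCs and 375 to 539 FPKM in DRGs, with Ednrb the highest in both. The summed level of 7 neuron markers was 63.4 to 197 FPKM in naive SGCs and 1931 to 3499 FPKM in DRGs, and 4602 to 8181 FPKM in isolated neurons on the scale of their own table. The neuron libraries also held 4 myelinating Schwann cell markers at a summed 725 to 2845 FPKM and 3 erythrocyte genes at 303 to 19230.4 FPKM. Among those 4 markers Pmp22 had group means of 1249 to 1946 FPKM, and Mbp, the next highest, 53.8 to 116 FPKM. One opposite-side neuron library stood apart, with 1176 genes listed at 0 against 207 to 809 in the other neuron libraries. Its median correlation with its own group was 0.847, against at least 0.904 for the others.

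RefSeq promoter windows (GRCm38.p6), which hold the 250 bases before a transcript start, matched 7 of the 10 members, and Fabp5, Clu and Lpl were not matched. Windows are shown for the 4 matched members called between naive SGCs and DRGs, and for Plin2, whose values lead the account of neurons. RefSeq and GENCODE place some starts differently. RefSeq's start lies 42 bases inside the GENCODE gene for Fabp7, 143 for Fabp3, 1 for Plin2 and 2362 for Plin3, where a shorter GENCODE transcript starts. The bases before the first GENCODE exon in each window are printed 5′ to 3′ on the strand of the gene for Fabp7 (chr10:57784673-57784880, plus strand), Apoe (chr7:19699189-19699438, minus strand), Plin3 (chr17:56290512-56290761, minus strand), Fabp3 (chr4:130308488-130308594, plus strand) and Plin2 (chr4:86670061-86670309, minus strand). The stretch for Plin3 lies in an intron of its longer transcript. Capitals mark matches on either strand to TATAAA (the TATA box), TGGGAA (the core bound by RBPJ, the factor through which Notch acts), AGGTCA (the core bound by nuclear receptors such as PPAR and RXR) or GGGCGG (the GC box).
Fabp7: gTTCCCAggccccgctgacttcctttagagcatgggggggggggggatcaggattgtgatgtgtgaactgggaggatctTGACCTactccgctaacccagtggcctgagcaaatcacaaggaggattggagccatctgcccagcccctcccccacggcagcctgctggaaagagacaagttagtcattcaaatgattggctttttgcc
Apoe: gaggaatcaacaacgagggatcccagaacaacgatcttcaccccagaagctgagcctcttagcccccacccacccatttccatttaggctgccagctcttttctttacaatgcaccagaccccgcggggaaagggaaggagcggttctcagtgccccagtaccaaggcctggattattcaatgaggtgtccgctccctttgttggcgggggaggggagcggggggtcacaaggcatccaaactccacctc
Plin3: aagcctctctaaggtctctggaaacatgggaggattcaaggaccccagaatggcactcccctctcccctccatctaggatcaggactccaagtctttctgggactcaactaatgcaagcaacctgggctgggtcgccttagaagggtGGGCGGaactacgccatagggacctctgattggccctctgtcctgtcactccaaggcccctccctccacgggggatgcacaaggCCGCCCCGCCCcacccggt
Fabp3: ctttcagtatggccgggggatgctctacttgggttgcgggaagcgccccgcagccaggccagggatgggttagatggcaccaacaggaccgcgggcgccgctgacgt
Plin2: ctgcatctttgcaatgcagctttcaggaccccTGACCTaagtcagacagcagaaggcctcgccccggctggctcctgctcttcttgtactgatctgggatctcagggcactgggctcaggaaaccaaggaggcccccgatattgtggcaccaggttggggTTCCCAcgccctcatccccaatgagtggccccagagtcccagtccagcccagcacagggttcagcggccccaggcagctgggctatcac
Over the whole windows, Fabp7 and Plin2 each held 1 RBPJ core and 1 nuclear receptor core. Of all 32851 windows of this length, 21.6% held the RBPJ core and 14.0% the nuclear receptor core. Plin3 held 3 GC boxes, and the 2 nearest the start overlap by 1 base. At least 1 GC box stood in 32.7% of all windows. Apoe and Fabp3 held none of these motifs, and TATAAA, found in 12.4% of windows, was in none of the 5. A match describes the letters and is no sign of binding.

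Fabp7, Apoe and Plin3 were higher in naive SGCs than in whole DRGs. Fabp5 and Clu were lower, as was Fabp3, which was listed at 0 in every SGC library. Of the 8 members that passed the filter of 1 FPKM in 4 libraries, 6 were called at an adjusted p under 0.05 by limma on log2(FPKM + 1), 3 higher and 3 lower. Among the 3 lower, Fabp3 passed that filter through DRGs only, and its listed 0 can be a failed estimate. Calls were common in this comparison: 44.9% of 12907 genes tested were called, 16.9% higher and 27.9% lower. The libraries of all 6 called members did not overlap between the preparations, as was so for 16.7% of genes higher in SGCs and 27.1% lower. Quantile normalization gave 3701 genes higher and 2691 lower, against 2184 and 3605 without it, and put the median log2 difference of all genes at 0.16 instead of -0.12. All 8 members kept their direction and the 6 kept their call under it.

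**Figure D1:**
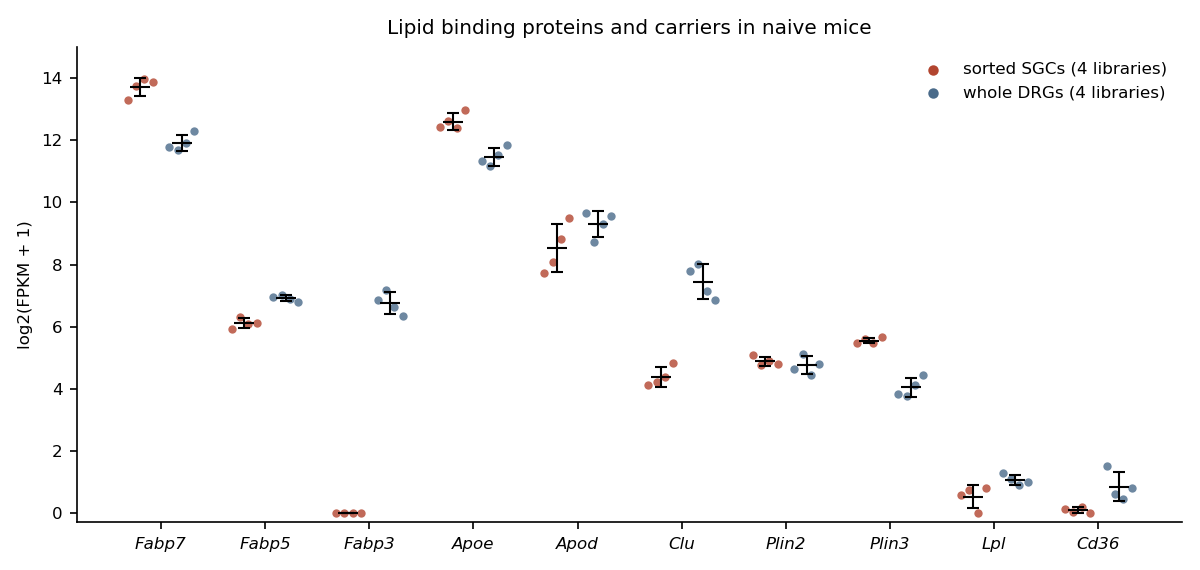
Level of each member in naive SGCs, drawn left of whole DRGs, as log2(FPKM + 1). Points are libraries, and the black bars are the mean and SD of 4 libraries on that scale. Fabp7, Apoe and Plin3 lie higher in SGCs without overlap, and Fabp5, Fabp3 and Clu lie lower without overlap. Fabp3 is listed at 0 in every SGC library, which can be a failed estimate.

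Fabp7, the brain-type FABP of radial glia and astrocytes, had the highest level of the set in both preparations. Its level was 10145, 13788, 15898 and 15035 FPKM in the 4 SGC libraries, against 3508, 3318, 3857 and 5014 FPKM in the 4 DRG libraries. The lowest SGC library lay above the highest DRG library. The means were 13717 ± 2534 FPKM in SGCs and 3924 ± 760.1 FPKM in DRGs (SD, n = 4 each), and the log2 difference was 1.80 ± 0.21 (SE, limma adjusted p = 0.000199). The gene lies at chr10:57784881-57788450 (GRCm38), and a match to the RBPJ core in its upstream window is capitalised in the sequence above.

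Fabp5, the epidermal-type FABP, lies at chr3:10012548-10016607 (GRCm38). It had 59.9, 79.2, 66.5 and 67.8 FPKM in SGCs, against 122, 129.8, 119 and 109.8 FPKM in DRGs. The groups did not overlap, and the log2 difference was -0.81 ± 0.12 (limma adjusted p = 0.00082). Within a library, where the scaling of a table cancels, Fabp7 was 169 to 239 times Fabp5 in naive SGCs and 25.6 to 45.7 times Fabp5 in DRGs. In SGCs after ligation or sham surgery the ratio was lower than in naive SGCs, at 79.0 to 149. In isolated neurons that ratio was 0 to 0.0535, so Fabp5 led the pair there. Fabp5l2, whose transcripts could share reads with Fabp5, stayed at or under 0.417 FPKM in SGCs and 0.881 FPKM in DRGs.

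Fabp3, the heart-type FABP of muscle, was listed at 0 in all 4 SGC libraries, while DRGs had 116, 144, 99.0 and 80.4 FPKM (limma adjusted p = 7.99e-08). A listed 0 can be a failed estimate, so no fold change is given, and Fabp3 passed the filter through DRGs only. In SGCs after surgery the authors' deposited tables give Fabp3 a baseMean (a mean normalised count) of 159 at 3 days and 117 at 14 days, although 12 of those 16 libraries list it at 0 FPKM. Its pseudogene Fabp3-ps1, which could share reads with it, had 0 to 0.415 FPKM in SGCs and 2.66 to 4.21 FPKM in DRGs.

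Among the extracellular carriers, Apoe had 5459.9, 6315, 5349 and 8067 FPKM in SGCs, against 2571, 2292, 2916 and 3695 FPKM in DRGs. All SGC libraries lay above all DRG libraries, with a log2 difference of 1.14 ± 0.20 (limma adjusted p = 0.0021). Clu, which codes for clusterin (apolipoprotein J), lay on the other side of 0. It had 16.3, 17.6, 19.7 and 27.6 FPKM in SGCs, against 222, 259, 139.9 and 114 FPKM in DRGs, a log2 difference of -3.07 ± 0.28 (limma adjusted p = 7.28e-05). Within a library Apoe was 272 to 359 times Clu in naive SGCs, 8.86 to 32.5 times in DRGs and 0 to 0.144 times in isolated neurons. In SGCs after ligation or sham surgery it was 85.8 to 282 times Clu.

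Apod spread widely among SGC libraries. It had 213, 272, 449 and 714 FPKM in SGCs, against 805, 426, 628 and 753 FPKM in DRGs. The groups overlapped, and the log2 difference of -0.78 ± 0.38 did not pass (limma adjusted p = 0.127; 0.0259 to 0.273 over the alternatives). Without the SGC library at 714 FPKM it was -1.10 and was called (adjusted p = 0.0259). In that library 6 fibroblast markers summed to 355 FPKM, against 114 to 157 FPKM in the other SGC libraries. The part of fibroblasts in the Apod values was not tested.

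Of the perilipins, Plin3 (TIP47, found in the cytosol and on young droplets) had 43.9, 47.2, 43.3 and 49.2 FPKM in SGCs, against 13.3, 12.7, 16.5 and 20.8 FPKM in DRGs. The libraries did not overlap, and the log2 difference was 1.501 ± 0.16 (limma adjusted p = 0.000164). Plin2 (adipophilin, which stays on droplets in most cells other than fat cells) averaged 28.7 ± 3.24 FPKM in SGCs and 26.4 ± 5.74 FPKM in DRGs (SD, n = 4 each). Its groups overlapped, and the 95% interval of the log2 difference was -0.25 to 0.52 (limma adjusted p = 0.564). The uptake genes Lpl and Cd36 did not pass the filter. Lpl had 0 to 0.749 FPKM in SGCs and 0.863 to 1.42 FPKM in DRGs, and Cd36 had 0 to 0.138 FPKM in SGCs and 0.372 to 1.86 FPKM in DRGs.

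Markers of most other cell types also differed between the preparations. The 8 macrophage markers summed to 3.42 to 4.74 FPKM in SGCs and 52.8 to 63.6 FPKM in DRGs. The 3 erythrocyte genes summed to 0.546 to 0.756 FPKM in SGCs and 971 to 2567 FPKM in DRGs, and the 3 neutrophil genes to 0 to 0.143 and 440.5 to 519 FPKM. The 6 mural cell markers summed to 7.58 to 12.7 FPKM in SGCs and 88.3 to 125 FPKM in DRGs, and the 6 myelinating Schwann cell markers to 555 to 618 and 1247 to 1672 FPKM. These sums were all lower in SGCs, as were the neuron markers. The 8 endothelial markers summed higher in SGCs, at 96.8 to 205 FPKM, than in DRGs, at 37.9 to 83.1 FPKM. The 6 fibroblast markers overlapped, at 114 to 355 FPKM in SGCs and 169 to 249 FPKM in DRGs. The 5 adipocyte markers summed to at most 0.213 FPKM in SGCs and 0.460 FPKM in DRGs. The part of these cells in the differences was not tested.

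The order of mean levels in naive SGCs was Fabp7, Apoe, Apod, Fabp5, Plin3, Plin2 and Clu, and neighbours lay apart there except Plin2 and Clu. In DRGs the order was Fabp7, Apoe, Apod, Clu, Fabp5, Fabp3, Plin2 and Plin3. There Fabp7 overlapped with Apoe, Clu with Fabp5, and Fabp5 with Fabp3.

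Genes that handle the same lipids were read from 4 lists. Beside their counts stand the shares of all genes, 16.9% called higher in SGCs and 27.9% lower. Of 17 lipoprotein receptors, efflux pumps and apolipoprotein partners, 13 were tested, 9 were higher in SGCs and 2 lower, with a median log2 difference of 1.06 against -0.12 for all genes. Apoc1, an apolipoprotein encoded next to Apoe, had 326 ± 118 FPKM in SGCs and 108 ± 21.9 FPKM in DRGs (SD, n = 4 each), differing by 1.54 ± 0.27 on the log2 scale (limma adjusted p = 0.00189). Vldlr, a receptor of lipoproteins that carry Apoe, had 53.2 ± 11.5 FPKM in SGCs and 18.0 ± 3.84 FPKM in DRGs, differing by 1.51 ± 0.21 (limma adjusted p = 0.000495). Pltp, which moves phospholipids between lipoproteins, had 11.1 to 16.8 FPKM in SGCs (limma adjusted p = 1.5e-06). It was listed at 0 in all 4 DRG libraries and passed the filter through SGCs only. Such a 0 can be a failed estimate. Sorl1, a sorting receptor that binds Apoe, had 0.753 ± 0.410 FPKM in SGCs and 18.1 ± 2.73 FPKM in DRGs, differing by -3.46 ± 0.20 (limma adjusted p = 1.15e-05). With a mean under 1 FPKM in SGCs it passed the filter through DRGs, and its difference was -4.54 to -3.10 over the alternatives. The other gene of the list lower in SGCs, named after its values were seen, was Lrp8, a receptor of Apoe and reelin, at -1.19 ± 0.15 (limma adjusted p = 0.000359). The difference of Lrp8 was -1.99 to -0.73 over the alternatives. Npc2, 1 of the 9 called higher and also named after its values were seen, had an adjusted p as high as 0.0868 over the alternatives.

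**Figure D2:**
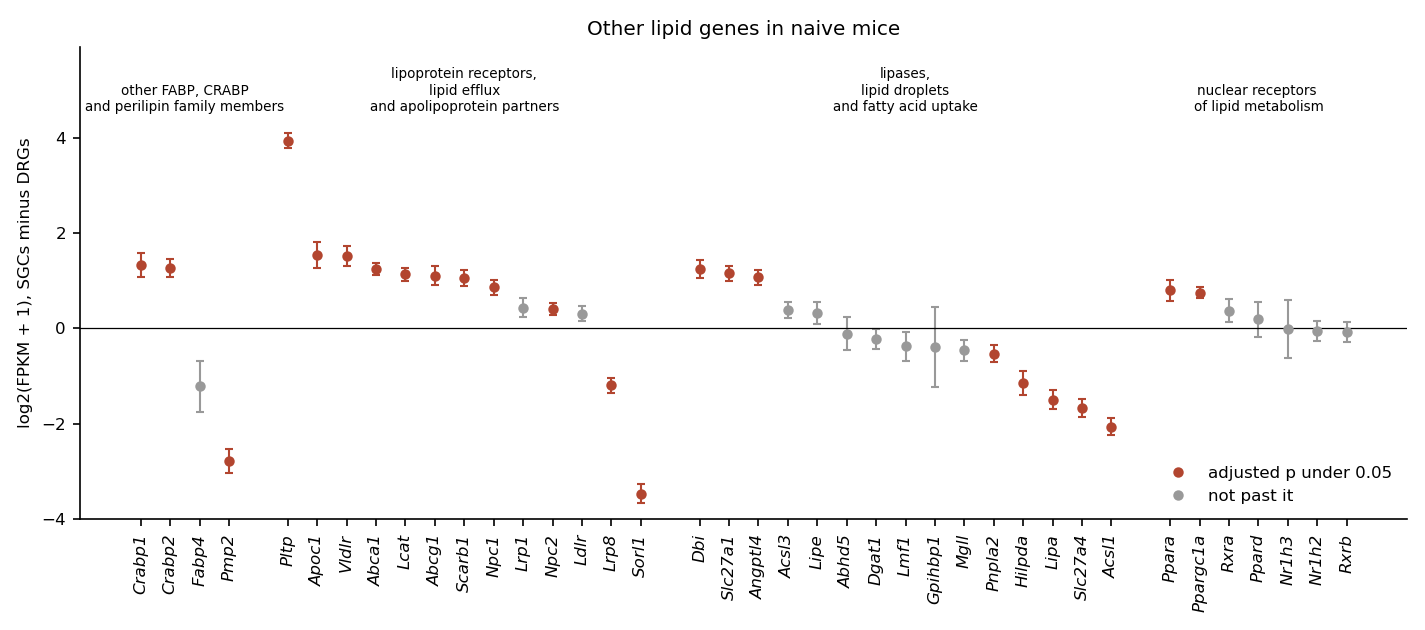
Log2 difference of naive SGCs minus whole DRGs for the tested genes of the 4 other lipid lists, with bars for the SE. Red points passed an adjusted p of 0.05 and grey points did not. In the lipoprotein list 11 of 13 genes lie above 0, with Sorl1 and Lrp8 below it, and Pltp (listed at 0 in DRGs) and Pmp2 (listed at 0 in SGCs) lie at a height set by the pseudocount.

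Of 13 other FABPs, CRABPs and perilipins or related carriers, 4 were tested, 2 were higher in SGCs and 1 lower. Crabp1 and Crabp2, which carry retinoic acid, were higher by 1.34 ± 0.25 and 1.27 ± 0.20 on the log2 scale (limma adjusted p = 0.00243 and 0.000962). Pmp2 (Fabp8), the FABP of myelin, was listed at 0 in the SGC libraries and had 3.76 to 9.26 FPKM in DRGs (limma adjusted p = 6.44e-05). It passed the filter through DRGs only, and its listed 0 can likewise be a failed estimate.

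Of 16 genes for lipases, droplets and fatty acid uptake, 15 were tested, 3 were higher in SGCs and 5 lower, with a median log2 difference of -0.37. These counts lay near the shares of all genes (16.9% higher and 27.9% lower). Acsl1 and Slc27a4, which activate fatty acids as they enter, were lower in SGCs, with log2 differences of -2.06 ± 0.18 and -1.67 ± 0.18 (limma adjusted p = 5.19e-05 and 0.000171). The difference of Acsl1 was -3.67 to -1.58 over the alternatives. Lipa, the lysosomal acid lipase, differed by -1.49 ± 0.20 (limma adjusted p = 0.000411). Dbi, which binds acyl-CoA, had 20694 ± 3526 FPKM in SGCs and 8711 ± 999 FPKM in DRGs (SD, n = 4 each), differing by 1.24 ± 0.19 (limma adjusted p = 0.000809). Over the alternatives that difference went as low as 0.26 and its adjusted p as high as 0.231. The other called genes, named after their values were seen, were Slc27a1 and Angptl4, which were higher in SGCs, and Hilpda and Pnpla2, which were lower. Pnpla2 differed by -0.53 ± 0.18 (limma adjusted p = 0.0444), and its adjusted p was as high as 0.209 over the alternatives, so its call was lost in some of them. Of 8 nuclear receptors of lipid metabolism and their coactivators, 7 were tested and 2 were higher in SGCs. These were Ppara at 0.80 ± 0.21 and its coactivator Ppargc1a at 0.75 ± 0.12 (limma adjusted p = 0.0152 and 0.00104). Quantile normalization gave 11 higher and 2 lower in the lipoprotein list, 2 higher and 1 lower among the family members, 4 higher and 4 lower in the lipase list and 3 higher and 0 lower among the nuclear receptors. Over all 12907 genes tested it gave 3701 higher and 2691 lower.

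After ligation no member was called in SGCs. At 3 days limma called 0.0646% of 13924 genes and 0 of 8 members tested, and at 14 days 0.00718% of genes and 0 of 8 members. An unadjusted p under 0.05 was found for 0 members and 9.11% of genes at 3 days, and for 1 member and 5.16% of genes at 14 days. The members' adjusted p ranged from 0.672 to 0.991 at 3 days and from 0.88 to 1 at 14 days. The difference between the ligation effects of the 2 days was called for 0.00718% of genes and 0 members, with an unadjusted p under 0.05 for 4.19% of genes and 0 members.

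**Figure D3:**
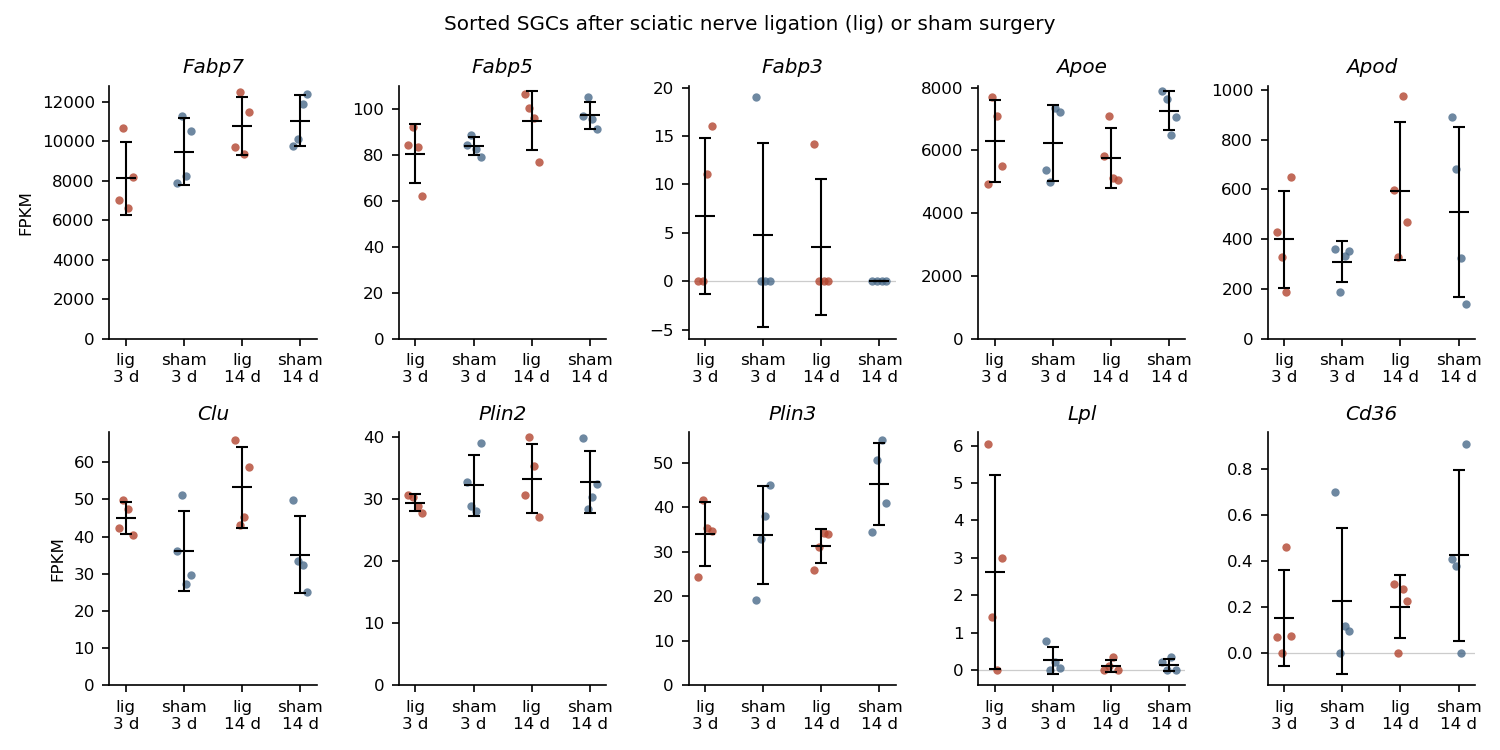
FPKM of each member in sorted SGCs, with ligated libraries drawn left of sham libraries at 3 and at 14 days. Points are libraries, and the black bars are the mean and SD of 4 libraries. At 14 days all 4 ligated libraries lie below the sham libraries for Plin3, and for Clu all 4 lie above 3 of the 4 sham libraries.

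Clu had the lowest p of the set at 14 days. Its level was 66.0, 43.0, 45.3 and 58.8 FPKM in ligated libraries, against 49.8, 33.3, 32.4 and 25.0 FPKM in sham libraries. Of the sham libraries, 3 lay below every ligated library and 1 overlapped. The log2 difference was 0.61 ± 0.22 (95% interval 0.13 to 1.09, unadjusted p = 0.0163, limma adjusted p = 0.88). The authors' deposited table gives 0.62 ± 0.21 (SE) with an adjusted p of 0.135, and 1.05% of its genes passed 0.05. At 3 days Clu averaged 45.0 ± 4.35 FPKM in ligated and 36.1 ± 10.7 FPKM in sham libraries (SD, n = 4 each). At 14 days the macrophage markers summed to 6.77 to 24.2 FPKM in ligated and 1.94 to 10.9 FPKM in sham libraries, the endothelial markers to 205 to 352 and 134 to 262 FPKM, and the neuron markers to 116 to 373 and 116 to 286 FPKM. The part of these cells in the Clu values was not tested.

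Plin3 was the one member whose ligated and sham libraries did not overlap at 14 days. It had 25.8, 31.1, 34.2 and 34.0 FPKM in ligated libraries, against 34.4, 50.6, 55.1 and 40.9 FPKM in sham libraries. All ligated libraries were lower, the closest pair by less than 1 FPKM, and 2.38% of all genes lay lower without overlap. The log2 difference was -0.50 ± 0.24 (limma adjusted p = 0.97), and the authors' deposited table gives -0.51 ± 0.20 with an adjusted p of 0.252. At 3 days Plin3 averaged 34.1 ± 7.18 FPKM in ligated and 33.7 ± 11.0 FPKM in sham libraries. The 95% interval of the difference between the days' effects was -1.29 to 0.17 (limma adjusted p = 1).

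Fabp7 had the highest mean of the set in all 4 groups. In ligated SGCs at 3 days its range overlapped that of Apoe, which had 4938 to 7711 FPKM. At 3 days Fabp7 had 7019, 10691, 6604 and 8181 FPKM in ligated SGCs, against 7893, 11291, 8234 and 10531 FPKM in sham SGCs. At 14 days it had 9718, 12502, 9378 and 11501 FPKM in ligated SGCs, against 9761, 10141, 11922 and 12385 FPKM in sham SGCs. The groups overlapped on both days. Between ligated SGCs at 14 and at 3 days the log2 difference was 0.42 ± 0.17 (unadjusted p = 0.0276, limma adjusted p = 0.725). There 0.00718% of genes and 0 members were called, and 6.24% of genes and 1 member had an unadjusted p under 0.05.

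Apoe averaged 6312 ± 1312 FPKM in ligated and 6233 ± 1221 FPKM in sham SGCs at 3 days (SD, n = 4 each). At 14 days it had 5808, 7105, 5112 and 5045 FPKM in ligated SGCs, against 7893, 7652, 6485 and 7054 FPKM in sham SGCs. Of the ligated libraries, 3 lay below the sham range and 1 inside it (limma adjusted p = 0.991). The authors' deposited table gives -0.31 ± 0.14 with an adjusted p of 0.414. Apod ranged over 187 to 651 FPKM in ligated and 185 to 358 FPKM in sham SGCs at 3 days, and 327 to 973 and 139 to 892 FPKM at 14 days.

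Fabp5 averaged 80.6 ± 12.9 FPKM in ligated and 83.8 ± 3.98 FPKM in sham SGCs at 3 days, and 95.1 ± 12.8 and 97.3 ± 5.84 FPKM at 14 days (SD, n = 4 each). Its sham libraries at 14 days, at 91.2 to 105 FPKM, all lay above those at 3 days, at 79.4 to 88.9 FPKM, as 2.43% of genes did. The log2 difference was 0.21 ± 0.13 (limma adjusted p = 0.971). Between the sham groups limma called 0% of genes, and 4.99% of genes (695) had an unadjusted p under 0.05. Plin2 averaged 29.4 ± 1.34 FPKM in ligated and 32.2 ± 4.95 FPKM in sham SGCs at 3 days, and 33.3 ± 5.63 and 32.7 ± 5.01 FPKM at 14 days.

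Lpl, which is secreted and acts on capillary endothelium, was close to 0 in most libraries. At 3 days it had 6.04, 1.41, 0.00941 and 3.01 FPKM in ligated SGCs, against 0.797, 0.0106, 0.225 and 0.0715 FPKM in sham SGCs. Of the ligated libraries, 3 lay above every sham library and 1 below them all. Lpl did not pass the filter and was not tested here, while the authors' deposited table gives 3.10 ± 1.23 (SE) with an adjusted p of 0.26, and 1.01% of its genes passed 0.05. At 14 days Lpl was at or under 0.355 FPKM in all 8 libraries. The ligated library with 6.04 FPKM of Lpl also had 11.4 FPKM of Fabp4, the FABP of fat cells, which was at or under 0.110 FPKM in the other 7 libraries at 3 days. The adipocyte markers of that library summed to 0.0718 FPKM and its endothelial markers to 225 FPKM, the lowest of the 4 ligated libraries. Over all groups at 3 days the endothelial markers summed to 225 to 446 FPKM in ligated and 159.8 to 308 FPKM in sham libraries. The part of these cells in the Lpl values was not tested. Cd36 had 0 to 0.463 FPKM in ligated and 0 to 0.911 FPKM in sham SGCs. Fabp3 was listed at 0 in 2 of 4 ligated and 3 of 4 sham libraries at 3 days, and in 3 of 4 ligated and 4 of 4 sham libraries at 14 days.

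None of the 4 other lipid lists held a called gene in SGCs at 3 or at 14 days. The tested genes with the largest differences, 1 for each list, were Crabp2 at 0.44 ± 0.40, Lrp1 at 0.52 ± 0.68, Hilpda at -0.93 ± 0.42 and Nr1h3 at -0.51 ± 0.53 at 3 days (limma adjusted p = 0.787, 0.861, 0.532 and 0.824). At 14 days they were Crabp2 at 0.07 ± 0.40, Pltp at 1.73 ± 0.81, Pnpla2 at -0.85 ± 0.39 and Ppargc1a at -0.35 ± 0.14 (limma adjusted p = 1, 0.967, 0.967 and 0.884). Pltp was listed at 0 in 1 sham library at 14 days.

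Vldlr, the receptor that was higher in naive SGCs than in DRGs, was singled out here after its values were seen. At 3 days it had 41.9, 41.9, 43.4 and 37.6 FPKM in ligated SGCs, against 56.7, 54.1, 51.8 and 61.8 FPKM in sham SGCs. At 14 days it had 41.7, 38.6, 43.4 and 49.2 FPKM in ligated SGCs, against 54.0, 59.8, 55.4 and 58.6 FPKM in sham SGCs. All 8 ligated libraries lay below all 8 sham libraries, as they did for 0.0934% of genes. At 3 days 2% of genes were lower without overlap, and 0.23% were so on both days. The log2 differences of -0.44 ± 0.11 at 3 days and -0.39 ± 0.11 at 14 days were not called by limma (adjusted p = 0.229 and 0.558; 0.182 to 0.697 and 0.157 to 1 over the alternatives). The authors' deposited tables give -0.42 ± 0.11 with an adjusted p of 0.0175 at 3 days, which passes 0.05, and -0.38 ± 0.12 with an adjusted p of 0.0847 at 14 days. The satellite glial markers summed to 911 to 1087 FPKM in ligated and 739 to 1178 FPKM in sham libraries at 3 days, and 1001 to 1134 and 1044 to 1219 FPKM at 14 days, so these ranges overlapped. The endothelial markers, whose ranges also overlapped, had higher medians in ligated libraries on both days, and the part of these cells in the Vldlr values was not tested.

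In isolated neurons the order of the set was another one, on the scale of their own table. Fabp5 had a median of 225 FPKM over the 20 libraries (173 to 310.0) and Clu of 172 FPKM (55.3 to 337). Plin2 had a median of 68.4 FPKM (10.4 to 102), Fabp3 of 63.2 FPKM (35.1 to 106) and Apod of 27.6 FPKM (0.139 to 55.9). These medians pool ligated and other libraries. In the 10 libraries without ligation the median of Fabp3, 60.6 FPKM, lay above that of Plin2, 44.0 FPKM. In the 10 ligated libraries the medians were 64.7 FPKM for Fabp3 and 80.2 FPKM for Plin2. In sham females the mean of Clu, 249 FPKM, lay above that of Fabp5, 203 FPKM, with an overlap. Fabp7 and Apoe, which led in SGCs, were low here, at 0 to 10.9 FPKM and 0 to 16.8 FPKM, and Cd36 had 0 to 2.74 FPKM. The lowest Apod, Clu and Plin2 values all came from the opposite-side library that stood apart.

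**Figure D4:**
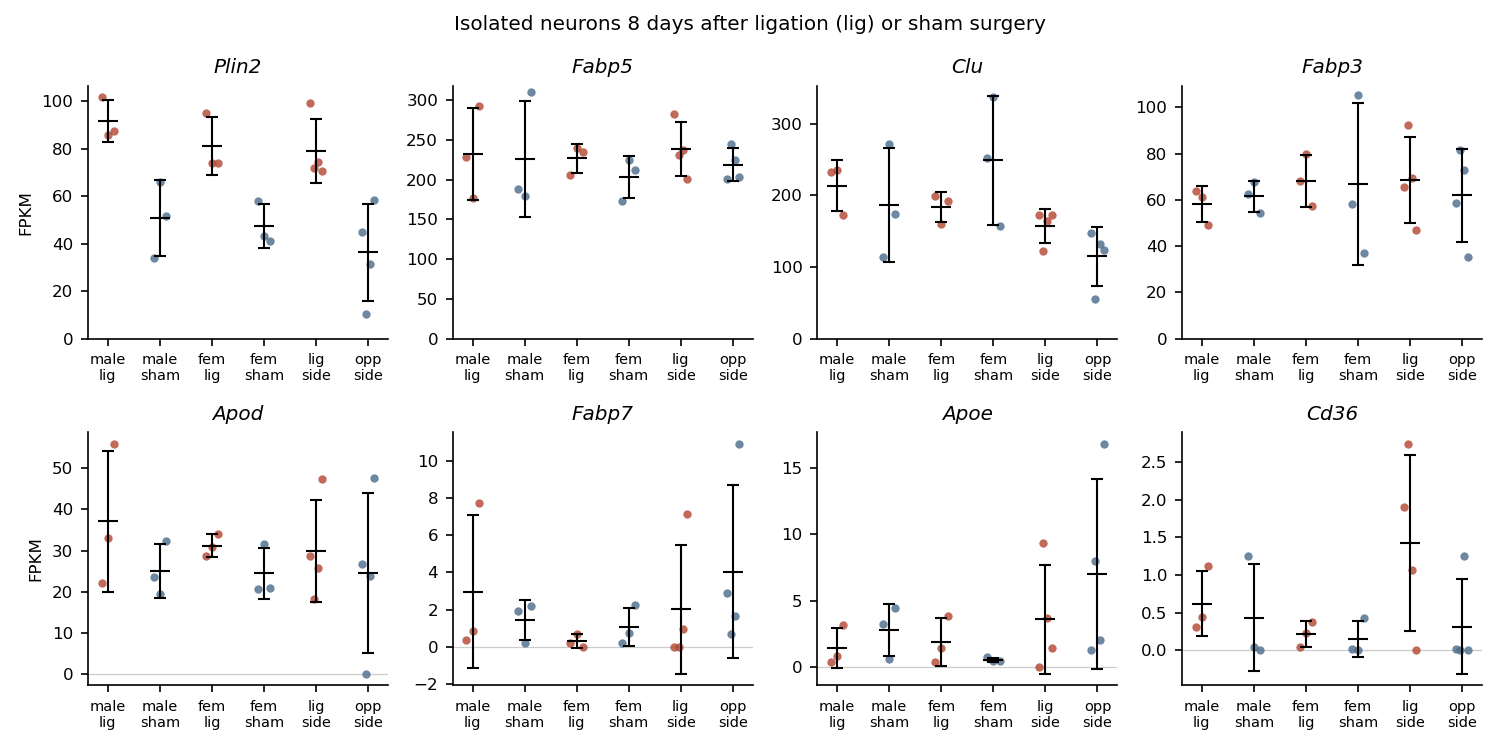
FPKM of the 8 members analysed in isolated neurons, with each ligated group drawn left of its sham or opposite-side group. Points are libraries, and the black bars are the mean and SD of 3 or 4 libraries. Plin2 is higher in the ligated group of each pair without overlap, while the other members overlap in each pair.

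Plin2, the droplet coat protein, was higher in every ligated library than in any other. In males it had 102, 86.0 and 87.3 FPKM after ligation, against 34.2, 66.2 and 51.5 FPKM after sham surgery. In females it had 95.3, 74.2 and 73.9 FPKM after ligation, against 57.9, 43.2 and 41.0 FPKM after sham surgery. The ligated side had 99.3, 71.8, 74.4 and 70.6 FPKM, against 44.8, 10.4, 31.6 and 58.6 FPKM on the opposite side. All 10 ligated libraries lay above all 10 others, as they did for 0.371% of 12145 genes. Taken pair by pair, 2.59% of genes were higher without overlap in males, 4.65% in females, 0.692% over both sexes and 2.68% between the sides. In all 3 separate pairs 0.527% of genes were.

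The fit over all neuron groups did not call Plin2 or any other member. Over both sexes the log2 difference was 0.83 ± 0.29 (95% interval 0.23 to 1.43, unadjusted p = 0.00913, limma adjusted p = 0.738; 0.0673 to 1 over the alternatives). In that comparison 0.28% of genes were called and 3.58% had an unadjusted p under 0.05, as did 1 member. The authors' deposited table for neurons gives Plin2 0.81 ± 0.20 (SE) with an adjusted p of 0.006, and 1.7% of its genes passed 0.05. Which of the 20 libraries entered that table is not given in the sources used here.

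In males the log2 difference of Plin2 was 0.89 ± 0.41 (limma adjusted p = 1), and 0.00823% of genes were called and 2.65% had an unadjusted p under 0.05. In females it was 0.77 ± 0.41 (limma adjusted p = 1), with 0.148% of genes called and 2.52% at an unadjusted p under 0.05. Females minus males gave -0.12 ± 0.57 (95% interval -1.32 to 1.08, limma adjusted p = 1). No gene was called by limma in that difference (0%), and 1.07% of genes had an unadjusted p under 0.05.

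Between the sides Plin2 differed by 1.32 ± 0.35 (limma adjusted p = 0.115), with 0.667% of genes called and 9.85% at an unadjusted p under 0.05. Without the opposite-side library that stood apart, at 10.4 FPKM, the difference was 0.83 ± 0.23 (limma adjusted p = 0.182). Without the opposite-side library at 58.6 FPKM it was 1.62 ± 0.34 and was called (limma adjusted p = 0.0304).

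Markers of other cells were read beside the Plin2 values. Schwann cell markers summed to 1389.8 to 2845 FPKM in ligated and 1254 to 2371 FPKM in sham males, and to 1009 to 2445 and 1095 to 2029 FPKM in ligated and sham females. On the ligated side they summed to 1151 to 1548 FPKM, and on the opposite side to 725 to 1733 FPKM. These sums were mostly Pmp22, and their ranges overlapped in each pair. On the ligated side 5 endothelial markers summed to 17.5 to 42.3 FPKM, below the opposite side at 45.3 to 123 FPKM. The 1 fibroblast marker analysed had 14.7 to 26.1 FPKM on the ligated side and 2.17 to 13.9 FPKM on the opposite side, and 2 neutrophil markers summed to 0.451 to 7.94 FPKM on the ligated side and were listed at 0 on the opposite side. Of the 8 macrophage markers only 1 had values in neurons, at 0 to 1.44 FPKM in ligated libraries and 0 to 8.23 FPKM in the others. The 3 erythrocyte genes summed to 1323 to 14603 FPKM in ligated and 303 to 12354 FPKM in sham males. In ligated and sham females they summed to 476 to 7278 and 649 to 8069 FPKM. On the ligated and opposite sides they summed to 8610 to 19230 and 3415 to 15580 FPKM, so the ranges overlapped in each pair. The part of these cells in the Plin2 values was not tested.

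The other members overlapped in each pair of neuron groups. Clu averaged 213 ± 35.8 FPKM in ligated and 186 ± 79.7 FPKM in sham males, and 184 ± 20.6 FPKM in ligated and 249 ± 89.7 FPKM in sham females (SD, n = 3 each). The difference between the sexes in its ligation effect was -0.65 ± 0.49 (limma adjusted p = 1). Fabp5 averaged 232 ± 57.9 FPKM in ligated and 226 ± 73.0 FPKM in sham males, and 227 ± 18.4 and 203 ± 26.9 FPKM in ligated and sham females. Neither gene was called in any pair. Fabp3 averaged 58.1 ± 7.78 FPKM in ligated and 61.5 ± 6.78 FPKM in sham males, and 68.3 ± 11.3 and 66.9 ± 35.1 FPKM in ligated and sham females. Apod averaged 37.1 ± 17.2 FPKM in ligated and 25.1 ± 6.60 FPKM in sham males, and 31.2 ± 2.71 and 24.4 ± 6.27 FPKM in ligated and sham females.

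Fabp7 had 0 to 7.73 FPKM in the ligated neuron libraries and 0.203 to 10.9 FPKM in the others, and Apoe had 0 to 9.32 and 0.425 to 16.8 FPKM. Of the 8 satellite glial markers only 2 had values in neurons: Glul at 27.5 to 71.6 FPKM and Ttyh1 at 0.0600 to 2.65 FPKM. None of the 4 other lipid lists, of which 1, 10, 15 and 4 genes were tested, held a called gene in any neuron comparison. Between the sides of ligated mice, leaving out 1 ligated-side library gave a call for Vldlr (1.503 on the log2 scale, limma adjusted p = 0.0163). That library had the lowest Vldlr of its side, 0.0732 FPKM, and the highest had 2.47 FPKM. Leaving out another gave a call for Angptl4, a lipase inhibitor (1.56 on that scale, limma adjusted p = 0.00924). Angptl4 was listed at 0 in the library left out, and the highest of that side had 3.87 FPKM. Both calls thus rest on low values and on dropping the lowest ligated-side library. Over both sexes the genes with the largest differences, 1 for each list, were Pmp2 at -0.84 ± 0.54, Vldlr at 0.55 ± 0.29, Dgat2 at -0.997 ± 0.46 and Rxrb at 0.38 ± 0.38 (limma adjusted p = 0.999, 0.999, 0.999 and 0.999). Between the sides they were Pmp2 at 0.26 ± 0.66, Lrp1 at 1.34 ± 0.70, Angptl4 at 1.14 ± 0.35 and Rxrb at -0.85 ± 0.47 (limma adjusted p = 0.924, 0.546, 0.197 and 0.564). Plin3 and Lpl had no FPKM values in neurons. The authors' deposited table gives Plin3 a baseMean of 12.2 and a log2 fold change of -0.11 ± 0.20, and Lpl a baseMean of 57.1 and a log2 fold change of -0.13 ± 0.23.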

How the data were processed

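Per the labels, SGCs and naive DRGs were dissociated and fixed, SGCs were then sorted by flow cytometry, and neurons were isolated with beads unfixed. The submitters' processing notes name STAR, SAMtools, Cufflinks, DESeq2 and mm10, with no role or version. The authors deposited FPKM in 3 separately scaled tables, 1 of them with other number marks (decimal commas). Their deposited tables of differential expression hold, per the file headers, baseMean (a signal, the mean normalised count), a log2 fold change, the standard error of that and an adjusted p-value. Their sign was turned to ligated over sham, because 121 of 122, 151 of 152 and 220 of 220 genes past 0.05 had the opposite sign in FPKM. The files used here hold no counts, so depth is unknown; 10225 to 13173 genes per library reached 1 FPKM. A further 1 column of per-sample values matched no label and was not used.

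Tests used limma 3.58.1 (R 4.3.3) with a mean-variance trend on log2(FPKM + 1), which understates changes of low genes. All groups of a table shared 1 fit, for genes at 1 FPKM or more in 4 libraries (3 in neurons). In each of 11 comparisons two-sided p-values were adjusted by the Benjamini-Hochberg method across every gene tested, and a gene is called at an adjusted p under 0.05. The code was tested on simulated data. Alternatives were a pseudocount of 0.1, no filter, quantile normalization, only the groups compared, array weights, a replicate block, and leaving out each library. The members and lists were chosen with earlier results of these data known. All members are described in every comparison. Of each other list the text names the called genes up to 4, the 4 largest beyond that, or the 1 largest difference where none was called; exceptions are named as such. One gene of the lists is not reported here and is left out of their counts. Motifs were searched on both strands. Python 3.11.15, pandas 2.3.3 and Matplotlib 3.10.9 made tables and figures.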

Additional observations from a re-analysis of the deposited data

Results flagged for a closer look

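Within groups of 4 libraries, 74 sets of member values were checked for 1 library far from the other 3, and 9 stood out. The threshold is one that chance passes in about 1 in 20 groups of normally distributed values, a rate that need not hold for FPKM near 0 or listed at 0. In ligated SGCs, Cd36 had 0.463 FPKM in 1 library at 3 days with the others at or under 0.0746 FPKM, and Fabp3 had 14.1 FPKM in 1 library at 14 days with the others listed at 0. In sham SGCs at 3 days, Fabp3 had 19.0 FPKM in 1 library with the others listed at 0. There Apod had 185 FPKM in 1 library with the others at 334 to 358 FPKM, and Cd36 had 0.699 FPKM in 1 with the others at or under 0.119 FPKM. These sham values of Fabp3 and Cd36 came from the same library. Its neuron markers summed to 518 FPKM, against 110 to 302 FPKM in the rest of its group. Its satellite glial markers summed to 739 FPKM, against 912 to 1178 FPKM. The part of other cells in these values was not tested. In neurons of the ligated side, Fabp7 had 7.13 FPKM in 1 library with the others at or under 0.944 FPKM. Clu had 122 FPKM in another with the rest at 163 to 172 FPKM, and Plin2 had 99.3 FPKM in another with the rest at 70.6 to 74.4 FPKM. Without that library Plin2 differed between the sides by 1.21 on the log2 scale (limma adjusted p = 0.281). On the opposite side, Cd36 had 1.25 FPKM in 1 library with the others at or under 0.0178 FPKM.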

How the results depend on the processing

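In naive mice 6 members were called, 6 to 7 under other settings and 6 to 8 when a library was left out, and no member tested reversed. Leaving out a library also lowered the filter by 1 library. Lpl, at 1 FPKM or more in 3 DRG libraries, could then pass it. In the 10 comparisons after surgery 0 members were called under the alternatives run, except between the sides of ligated mice, where leaving out a library gave 0 to 1 (Plin2 without 1 opposite-side library, 1.62 on the log2 scale). Counts of all genes called moved by over 1.5 times under some alternative in several comparisons, given here as the count with its range over the alternatives in brackets. They were 9 (1 to 14) at 3 days, 1 (0 to 10) at 14 days, 1 (0 to 4) for the difference between these, 0 (0 to 4) between sham groups and 1 (1 to 4) between ligated groups. In neurons they were 34 (21 to 48) over both sexes, 1 (0 to 4) in males, 18 (7 to 35) in females, 0 (0 to 1) between the sexes and 81 (36 to 119) between the sides. Same-numbered libraries deviated together with correlations of 0.00273 to 0.186 in naive mice and -0.0758 to 0.0792 in SGCs after surgery. The labels do not say whether the numbers pair libraries, and these correlations alone cannot settle it. With the replicate block 6 members were called in naive mice and 0 at 3 and at 14 days, and 1 of all genes at 3 days. No paired analysis was possible in neurons because their columns carry no replicate numbers. The cause of these shifts was not tested. Without counts the depth behind a value near 0 FPKM is unknown, so a member near 0 is not shown to be absent.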

Other observations

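Ppargc1a, the PPAR coactivator that drives fatty acid oxidation, was singled out after its values were seen. At 3 days it had 11.5, 11.96, 11.8 and 11.8 FPKM in ligated SGCs, against 15.6, 14.5, 17.1 and 18.2 FPKM in sham SGCs. The groups did not overlap, as was so for 2% of genes in that direction. At 14 days it had 11.4, 16.3, 12.9 and 14.4 FPKM in ligated SGCs, against 20.1, 15.7, 16.1 and 18.9 FPKM in sham SGCs, with an overlap. The log2 differences of -0.44 ± 0.14 and -0.35 ± 0.14 were not called by limma (adjusted p = 0.352 and 0.884; 0.352 to 0.727 and 0.254 to 1 over the alternatives). The authors' deposited tables give -0.45 ± 0.12 with an adjusted p of 0.0295 at 3 days and -0.35 ± 0.17 with an adjusted p of 0.484 at 14 days.

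Angptl4, which inhibits Lpl, and Hilpda, which inhibits the main droplet lipase, were read in the same libraries. Angptl4 had 16.6 to 32.5 FPKM in ligated and 28.1 to 42.1 FPKM in sham SGCs at 3 days, and 33.6 to 42.8 and 28.2 to 51.1 FPKM at 14 days. Hilpda had 1.86 to 11.6 FPKM in ligated and 10.2 to 17.8 FPKM in sham SGCs at 3 days, and 7.17 to 15.7 and 9.39 to 23.7 FPKM at 14 days. The ligated and sham ranges of both genes overlapped on both days.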
